A study of Mus musculus with 12 samples.

Results

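The change from embryonic day (E) 11.5 to E12.5 that XX and XY gonadal support cells had in common was measured as the E12.5 minus E11.5 difference over all 12 arrays, with the XX or XY genotype as a block. Members were the probe sets whose change had the same sign in XX and in XY and whose adjusted p was under 0.05. Of the 44238 probe sets tested, 26349 had the same sign in both genotypes and 17889 had opposite signs. Of all probe sets tested, 1487 (3.36%) rose and 1761 (3.98%) fell. These 3248 members include 2595 with 1 gene symbol, 58 with several and 595 with none, and the named ones mark 1165 genes with a rise (6.47% of the 17996 genes tested) and 994 genes with a fall (5.52%).

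The 4 groups were XX and XY somatic support cells at E11.5 and at E12.5, each with 3 pools of cells that flow cytometry had isolated from gonads, labelled ovary for XX and testis for XY. Every group was on the FVB.Cg-Tg(Tyr)3412ARpw background and carried the Tg(Sry-EGFP)92EI reporter, so all cells compared carry the tyrosinase transgene and the EGFP reporter named for Sry. Each pool holds cells of an unstated number of embryos, and where the embryos of a pool came from is not stated, so a p-value here reflects only how pools vary. RNA was read on Affymetrix mouse arrays, on which a gene can have several probe sets, each reading a different stretch of its transcripts. Values are log2 signals, so a difference of 1 is a 2-fold change.

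The supporting lineage holds the somatic cells that surround and nourish germ cells. It starts as a common progenitor population in XX and XY gonads, and Sry then starts the Sertoli programme in XY cells, while XX cells become pregranulosa cells. Both fates leave the same progenitor state. The same sign in both genotypes does not by itself set a member apart from changes that separate ovary from testis, since its size can differ between XX and XY. Xist, the RNA of the inactive X chromosome, and the Y-linked gene Eif2s3y matched the labelled genotype on all 12 arrays: Xist lay between 12.80 and 12.95 in XX and between 6.56 and 7.87 in XY. The supporting-cell markers Wt1, Nr5a1, Gata4, Kitl, Amhr2 and Runx1 were all above the background range of 3.33 to 5.17. That range is what 5 Y-linked probe sets gave in XX arrays, which have no such transcript. The lowest marker value was Runx1 at 8.08 on XY E12.5 pool 2. The medians of all arrays, 6.494 to 6.592, also lie above the range, so clearing it does not identify a cell type.

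**Figure D1:**
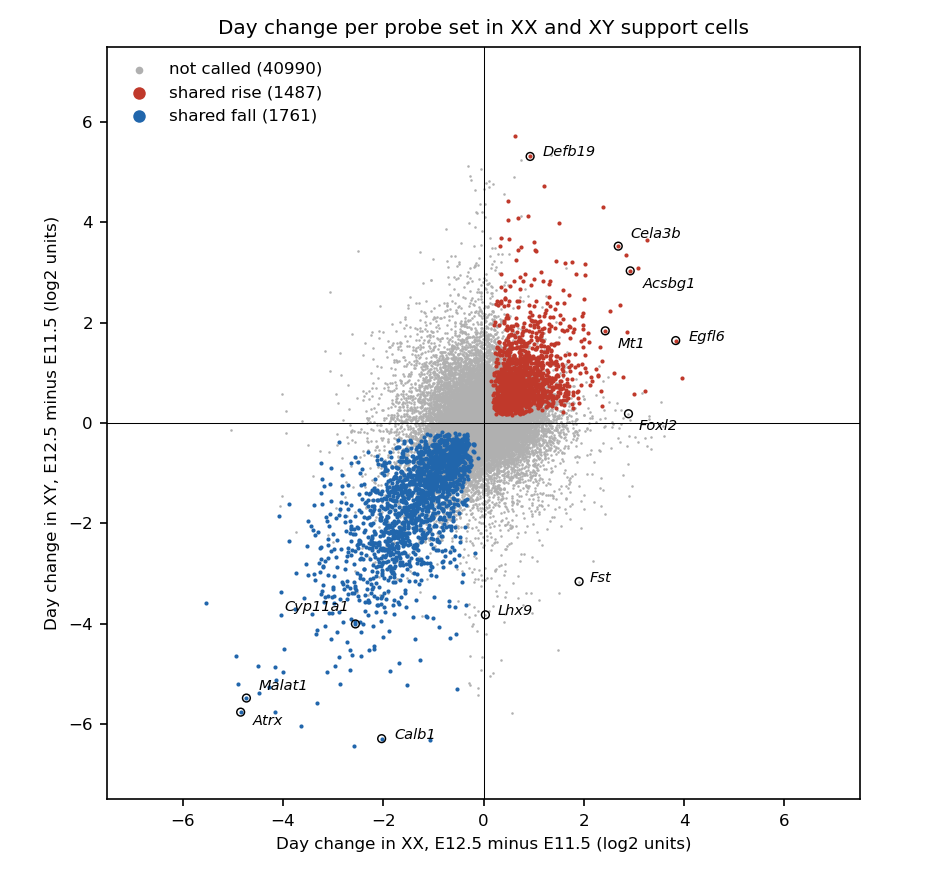
Day change of every tested probe set in XX (x axis) and in XY (y axis), both as E12.5 minus E11.5 in log2 units; red points are the 1487 shared rises, blue points the 1761 shared falls and grey points probe sets not called. Falls reach further from 0 than rises do, to -5.31 against 3.45 as the average change, and Foxl2, Lhx9 and Fst lie off the shared diagonal.

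In the plot of the day change in XX against that in XY, the falls were larger than the rises. The median change was 0.77 for rises and -1.35 for falls, against 0.05 over all probe sets, and 441 rises and 1201 falls were of at least 1 log2 unit. That members lie in the 2 same-sign quadrants is fixed by how they were chosen. Among the members, 314 (101 rises and 213 falls) also passed the test in XX alone and in XY alone, where 3.11% and 6.16% of all probe sets passed. Another 1520 passed in neither alone, and 72 changed by an amount that also differed between XX and XY. The values of the 6 E12.5 arrays and the 6 E11.5 arrays did not overlap for 1386 members, 515 rises and 871 falls. Without that call rule, 6.37% of the same-sign probe sets had no overlap.

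Some E11.5 pools stood apart at the members. Relative to each probe set's mean over the arrays, the median rise member lay between -0.48 and -0.12 on the E11.5 arrays and between 0.09 and 0.57 on the E12.5 arrays. The median fall member lay between 0.19 and 1.04 at E11.5 and between -0.83 and -0.23 at E12.5. At E11.5, XX pool 3 and XY pools 1 and 3 were highest at the falls, with 1.04, 0.76 and 0.83, against 0.48, 0.50 and 0.19 on the other E11.5 arrays. Array medians over all probe sets ran only from 6.494 to 6.592. Without those 3 pools, which were picked for these values, 65 rises and 199 falls passed, and 60 and 193 of them were among the members. That fit keeps 2 XX and 1 XY array at E11.5. The median change of the members was then 0.67 for rises and -1.03 for falls. Of the 96 called probe sets that the naming rules chose, 24 kept their call in it.

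Among the 15 largest rises of named genes without overlap between days were Cela3b, Acsbg1, Pde8b and Egfl6. Cela3b encodes a chymotrypsin-like elastase best known from pancreatic acinar cells. At its brightest probe set it read 8.29, 6.08 and 6.80 in XX and 7.82, 8.62 and 6.89 in XY at E11.5, and 9.38, 10.26 and 10.05 in XX and 10.61, 11.32 and 11.49 in XY at E12.5. All 6 E12.5 values lie above all 6 E11.5 values, and the fitted rise was 8.58-fold (95% interval 4.68 to 15.8, adjusted p = 0.00292). All 4 probe sets of Cela3b rose, by 3.10, 2.48, 1.06 and 3.11 log2 units from the brightest to the dimmest. Without the 3 E11.5 pools that stood apart, the brightest had an adjusted p of 0.059 and the dimmest of 0.034. Cela3b was 1 of 17 measured genes of a list of pancreatic-type elastases and acinar enzymes. At the brightest probe set 5.88% of the list rose and 5.88% fell, where 4.65% and 1.94% of all genes did. In that list only Cela3b rose, and Cpa1, a carboxypeptidase, fell by 1.43 ± 0.36 (SE) log2 units (adjusted p = 0.0398), a call lost on leaving out any of 10 of the 12 arrays.

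Acsbg1, a long-chain acyl-CoA synthetase, rose by 2.93 in XX and 3.04 in XY. Its values were 5.66, 5.81 and 6.15 in XX and 5.57, 4.82 and 5.74 in XY at E11.5, and 8.25, 9.0 and 9.14 in XX and 7.66, 8.95 and 8.62 in XY at E12.5. The lowest E12.5 value, 7.66, lies above the highest E11.5 value, 6.15, and the rise was 7.89-fold (95% interval 5.39 to 11.6, adjusted p = 0.000668). Pde8b, a cyclic AMP phosphodiesterase, rose at both of its probe sets, by 2.40 and 3.08 log2 units, and at the dimmer of them E11.5 lay in the background range. Egfl6, a secreted matrix protein with EGF-like repeats, ran from 5.12 to 7.02 (median 5.93) at E11.5 and from 7.05 to 10.91 (median 8.36) at E12.5, a rise of 6.68-fold (95% interval 3.3 to 13.5, adjusted p = 0.00817), and its XX pools at E12.5 were above its XY pools.

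Gfra1, Nkain2, Shtn1 and Smpx were among the same 15. Gfra1, the receptor that binds GDNF, ran from 6.58 to 7.55 (median 7.07) at E11.5 and from 8.36 to 10.11 (median 9.0) at E12.5, a rise of 4.35-fold (95% interval 2.98 to 6.34, adjusted p = 0.002) at the brightest of its 3 probe sets, and its other two probe sets did not pass. Nkain2, which interacts with the sodium pump, rose at both of its probe sets, by 2.54 ± 0.34 (SE) log2 units at the brightest. Shtn1 (shootin 1, known from axon outgrowth) rose by 2.09 ± 0.36 and Smpx (a small muscle protein) by 2.24 ± 0.39, with adjusted p of 0.00847 and 0.00935. Defb19, Kazald1, Cracdl and Cemip were among those 15 too, and each rose more in XY than in XX. Defb19 lost its call without XY E11.5 pool 1 and without XY E12.5 pools 2 or 3, where the highest adjusted p was 0.0555.

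**Figure D2:**
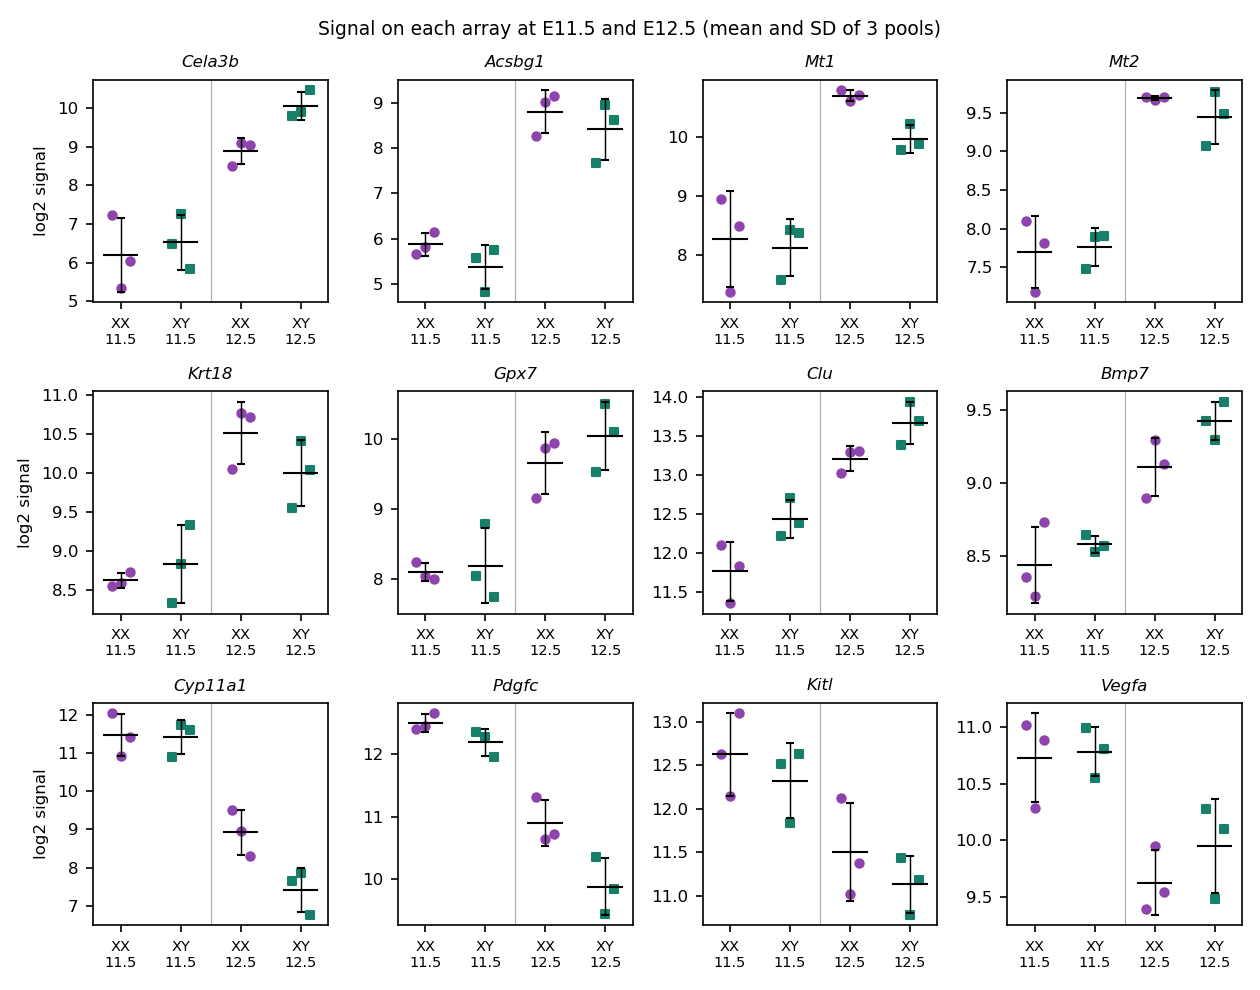
Log2 signal of 12 members on each of the 12 arrays (points; circles XX, squares XY), with the mean and SD of the 3 pools of each group; the line in the middle of each panel separates E11.5 from E12.5. Each y axis has its own range. In the top 2 rows E12.5 is above E11.5 and in the bottom row below it; for Kitl the days overlap.

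Of the 4 metallothionein genes measured, Mt1 and Mt2 rose, while Mt3 and Mt4 changed by 0.41 ± 0.11 and 0.44 ± 0.13 (SE) log2 units and did not pass (adjusted p = 0.0546 and 0.0586). Metallothioneins are small cysteine-rich proteins that bind zinc and copper, and Mt1 and Mt2 lie side by side on chromosome 8 with no other protein-coding gene starting between them. The best known control of these genes is by MTF1, which binds metal response elements in their promoters. The RefSeq windows from 250 bases before to 50 after the start (GRCm38.p6) are shown because this pair of neighbours moved together. Capitals mark every TGCGCNC or TGCACNC core on either strand. Mt1 is at chr8:94178839-94179138, Mt2 at chr8:94172368-94172667, both on the plus strand.
Mt1: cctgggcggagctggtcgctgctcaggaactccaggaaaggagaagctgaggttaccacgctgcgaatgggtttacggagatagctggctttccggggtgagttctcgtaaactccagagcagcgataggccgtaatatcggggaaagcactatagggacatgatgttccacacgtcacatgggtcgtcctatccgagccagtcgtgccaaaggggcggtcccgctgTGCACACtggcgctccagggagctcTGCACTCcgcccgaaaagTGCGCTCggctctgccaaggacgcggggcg
Mt2: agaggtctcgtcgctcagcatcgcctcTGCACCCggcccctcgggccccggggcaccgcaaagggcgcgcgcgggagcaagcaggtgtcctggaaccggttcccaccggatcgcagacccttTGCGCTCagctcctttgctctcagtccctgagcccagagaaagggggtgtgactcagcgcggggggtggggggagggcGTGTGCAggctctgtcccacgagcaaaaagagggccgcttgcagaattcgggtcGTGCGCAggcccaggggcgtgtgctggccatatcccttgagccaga
The Mt1 window holds 3 cores and the Mt2 window 4. Of the 14301 genes tested that have such a window, 36.3% hold at least 1 core and 3.31% more than 2. A match of letters is a description and not a bound site.

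Mt1 read 8.96, 7.38 and 8.5 in XX and 7.57, 8.43 and 8.37 in XY at E11.5, and 10.80, 10.61 and 10.71 in XX and 9.79, 10.23 and 9.88 in XY at E12.5, a rise of 4.39-fold (95% interval 2.94 to 6.55, adjusted p = 0.00249). XX E12.5 pools were higher than XY E12.5 pools at Mt1, yet the change did not pass the test of a difference between genotypes (adjusted p = 0.664). Its second probe set also rose, by 0.38 ± 0.10 (SE) log2 units. Mt2, Mt3 and Mt4 were looked up after Mt1 had been seen to rise. Mt2 ran from 7.18 to 8.10 (median 7.85) at E11.5 and from 9.08 to 9.77 (median 9.68) at E12.5, a rise of 3.57-fold (95% interval 2.75 to 4.64, adjusted p = 0.000944). Both kept their calls on leaving out each array and without the 3 E11.5 pools that stood apart.

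Enzymes of glutathione and antioxidant defence were the list with the highest share of rises among the 37 lists. Of 31 measured genes, 9 rose and 0 fell, 29% against 4.65% of all genes at their brightest probe set, and the median change of the list was 0.38 against 0.10 for all genes. The count of 9 rests on single arrays: it dropped to 4 without XX E12.5 pool 2 or pool 3 and to 5 when pool 1 of XY E11.5 or pool 2 of XY E12.5 was left out, and it was 0 without the 3 E11.5 pools that stood apart. Most of those that rose are glutathione S-transferases, which couple glutathione to reactive compounds: Gstm2, Gstm5, Gstm6, Gstp1, Gstt1 and Gstt2, with the microsomal Mgst3. The others were Gpx7, a peroxidase of the endoplasmic reticulum, and Prdx4, a peroxiredoxin of the same compartment. The μ-class genes are close paralogs, so a probe set can read more than 1 of them.

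Gpx7 ran from 7.75 to 8.79 (median 8.05) at E11.5 and from 9.15 to 10.5 (median 9.91) at E12.5, a rise of 3.25-fold (95% interval 2.32 to 4.56, adjusted p = 0.0031). Gstt1 ran from 6.86 to 7.75 (median 7.5) at E11.5 and from 8.45 to 9.16 (median 8.65) at E12.5, a rise of 2.47-fold (95% interval 1.92 to 3.19, adjusted p = 0.00291), and Mgst3 rose by 1.06 ± 0.19 (SE) log2 units. For all 3 genes the days did not overlap, but without the 3 E11.5 pools that stood apart their adjusted p were 0.0599, 0.057 and 0.063. Gstm2 rose by 1.5 ± 0.32 but its days overlap, since its XY pools were above its XX pools on both days. Gstm6 changed by 0.35 in XX and 3.69 in XY. The classical antioxidant enzymes Sod1, Sod2, Cat, Gpx1, Gpx4, Hmox1, Nqo1 and Gclc did not pass, with changes from -0.21 for Sod1 to 0.60 for Gpx1. Of the 8 risen genes with a promoter window, 1 held the antioxidant response core TGACNNNGC on either strand (12.5%, against 16.2% of the tested genes with a window); over the whole list it was 8 of 28 (28.6%).

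Of 19 genes of the supporting lineage in both sexes, 3 rose and 1 fell (15.8% and 5.26%, against 4.65% and 1.94% of all genes). The simple-epithelial keratins Krt8 and Krt18, which form a filament pair and whose genes are neighbours, both rose. Krt18 ran from 8.33 to 9.33 (median 8.66) at E11.5 and from 9.56 to 10.77 (median 10.23) at E12.5, a rise of 2.88-fold (95% interval 2.04 to 4.06, adjusted p = 0.00496). Krt8, at a higher signal, ran from 10.66 to 11.40 (median 11.13) at E11.5 and from 11.47 to 11.91 (median 11.67) at E12.5, a rise of 1.49-fold (95% interval 1.24 to 1.8, adjusted p = 0.0189), and its 3 probe sets all rose, by 0.58, 0.57 and 0.73 log2 units. Wnt6, a secreted WNT ligand, rose by 0.92 ± 0.24 (SE), with an adjusted p of 0.0441 that was lost on leaving out any of 10 of the 12 arrays. Krt8 lost its call without XX E12.5 pool 2. Kitl, the ligand of the KIT receptor of germ cells, fell, as described with the falls.

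The genes that define the lineage or its 2 fates were mostly not members. At their brightest probe sets Sry, Sox9, Foxl2, Amh, Fst, Wnt4, Nr5a1, Gata4, Wt1, Lhx9, Emx2, Nr0b1 and Runx1 did not pass. The day changes of Sry, Foxl2, Fst, Lhx9, Emx2 and Nr0b1 differed between XX and XY, and 1 shared value does not describe them: Foxl2 changed by 2.89 in XX and 0.19 in XY, and Lhx9 by 0.04 in XX and -3.83 in XY. Lhx9 and Runx1 each fell at 1 dimmer probe set, with changes of -2.69 ± 0.26 and -2.64 ± 0.54 (SE). Nr5a1 changed by 0.21 ± 0.23 and Gata4 by 0.32 ± 0.25.

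Of 27 measured genes of Sertoli cells, the XY fate, 6 rose and 1 fell, where 4.65% of all genes rose and 1.94% fell. The 6 became 1 to 5 on leaving out 1 array: 1 without XY E11.5 pool 1, XY E12.5 pool 2 or XY E12.5 pool 3, 2 without XX E11.5 pool 3, XY E11.5 pool 2, XX E12.5 pool 2 or XY E12.5 pool 1, and 3 when pool 3 of XY E11.5 was left out. It was 0 without the 3 E11.5 pools that stood apart. Their median change over the list was 0.92. Cldn11, a tight-junction claudin, ran from 6.84 to 8.59 (median 7.68) at E11.5 and from 8.57 to 11.25 (median 10.04) at E12.5, a rise of 5.07-fold (95% interval 2.64 to 9.76, adjusted p = 0.0112), with changes of 1.45 in XX and 3.23 in XY. Ptgds, which makes prostaglandin D2, changed by 0.5 in XX and 4.04 in XY, and its shared call was lost on leaving out any of 8 arrays. Gdnf, Tesc and Mro rose by 2.13 ± 0.57, 1.46 ± 0.39 and 0.55 ± 0.15 (SE) log2 units and had adjusted p of 0.047, 0.046 and 0.049. In XX those changes were 0.74, 0.43 and 0.25, against 3.51, 2.49 and 0.84 in XY. Cbln1, a cerebellin, fell from 10.45, 10.53 and 9.99 to 8.84, 7.79 and 7.86 in XX and from 9.59, 10.73 and 10.82 to 9.32, 8.84 and 8.91 in XY, a fall of 3.38-fold (95% interval 2.21 to 5.15, adjusted p = 0.00628) with no overlap. Of the 21 pregranulosa genes measured, 0 passed in either direction at the brightest probe set; at an unadjusted p under 0.05, 5 were higher and 1 lower at E12.5, where 18.6% and 6.13% of all genes were.

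Signalling genes gave scattered rises, counted at the brightest probe set, where 4.65% of all genes rose and 1.94% fell. Among BMP, activin and TGF-beta genes 2 of 36 rose (5.56%, near the share of all genes) and 0 fell. Bmp7, a BMP ligand, ran from 8.22 to 8.73 (median 8.55) at E11.5 and from 8.90 to 9.56 (median 9.30) at E12.5, a rise of 1.7-fold (95% interval 1.44 to 1.99, adjusted p = 0.00394), and a second probe set rose by 1.57 ± 0.31 (SE) log2 units. Id3, a BMP target, rose by 1.71 ± 0.41, a call lost on leaving out any of 10 arrays. Notch2, a Notch receptor, rose by 0.73 ± 0.09 (adjusted p = 0.00314), with 0.70 in XX and 0.76 in XY. It was the 1 of 18 Notch genes that rose at the brightest probe set (5.56%), and 2 rose at any probe set, where 6.47% of all genes did. Of 35 WNT genes 3 rose (8.57%), Wnt6, Wnt2b and Sfrp4, and each of those calls was lost on leaving out any of 9 or more arrays.

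Immediate early and heat shock genes had 4 rises and 0 falls among 28 (14.3% risen, against 4.65% of all genes). Junb ran from 5.23 to 5.84 (median 5.59) at E11.5 and from 5.95 to 7.66 (median 6.71) at E12.5, a rise of 2.29-fold (95% interval 1.74 to 3.02, adjusted p = 0.00542). Egr1 rose by 1.31 ± 0.26 (SE) log2 units and was highest in XY at E12.5, at 13.31, 13.09 and 13.08. Myc rose by 1.11 ± 0.26 and the small heat shock protein Hspb1 by 1.46 ± 0.33, calls that were lost without any of 7 and 6 arrays. Their products are transcription factors induced within minutes of a stimulus, except Hspb1, a chaperone.

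Matrix genes rose at a few members, counted at the brightest probe set, where 4.65% of all genes rose and 1.94% fell. Of 18 collagen and basement membrane genes measured, 3 rose: Col18a1 by 1.57 ± 0.29 (SE), Col6a1 by 1.16 ± 0.30 and Lamc1 by 0.88 ± 0.19 log2 units. Col18a1, a basement membrane collagen, was higher in XY than in XX on both days, at 10.91, 11.04 and 11.04 in XX and 13.28, 13.56 and 13.20 in XY at E12.5. Col6a1 was highest in XX at E12.5, and its call was lost on leaving out any of 11 arrays; Lamc1 did not pass as the mean of its 2 probe sets (adjusted p = 0.842). Of 20 matrix proteases and inhibitors, Mmp11 and the collagen chaperone Serpinh1 rose and Adamts1 fell; the calls of Mmp11 and Serpinh1 were lost on leaving out any of 4 and 9 arrays.

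Metabolic lists had few members each, counted at the brightest probe set, where 4.65% of all genes rose and 1.94% fell. Dhcr7, which carries out the last step of cholesterol synthesis, ran from 8.20 to 8.81 (median 8.27) at E11.5 and from 9.17 to 10.47 (median 9.77) at E12.5, a rise of 2.66-fold (95% interval 2.1 to 3.38, adjusted p = 0.00171) with no overlap; of 21 cholesterol genes, Dhcr7 and Hsd17b7 rose. Aldh1a1, which makes retinoic acid, rose by 1.39 ± 0.28 (SE) log2 units, with XY pools up to 14.14 at E12.5, and Aldh1a3 by 1.04 ± 0.25; they were 2 of 17 genes of retinoic acid metabolism. Of 28 oxidative phosphorylation genes 2 rose, Sdhc by 1.11 and Ndufa4 by 0.60. The other probe set of Sdhc changed by 0.04 ± 0.09 (SE) and did not pass. The calls of Hsd17b7, Aldh1a3 and Ndufa4 were lost on leaving out any of 10, 7 and 6 arrays. Other probe sets of Hsd17b7 changed by -0.26, 0.28 and 0.03 and those of Aldh1a3 by 0.07 and 0.18, and none passed. As the mean of its probe sets, Hsd17b7 did not pass. Of 16 cytosolic ribosomal protein genes 0 rose, and their median change was 0.16. At an unadjusted p under 0.05 in limma, 5 of them (31.2%) were higher at E12.5, where 18.6% of all genes were.

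**Figure D3:**
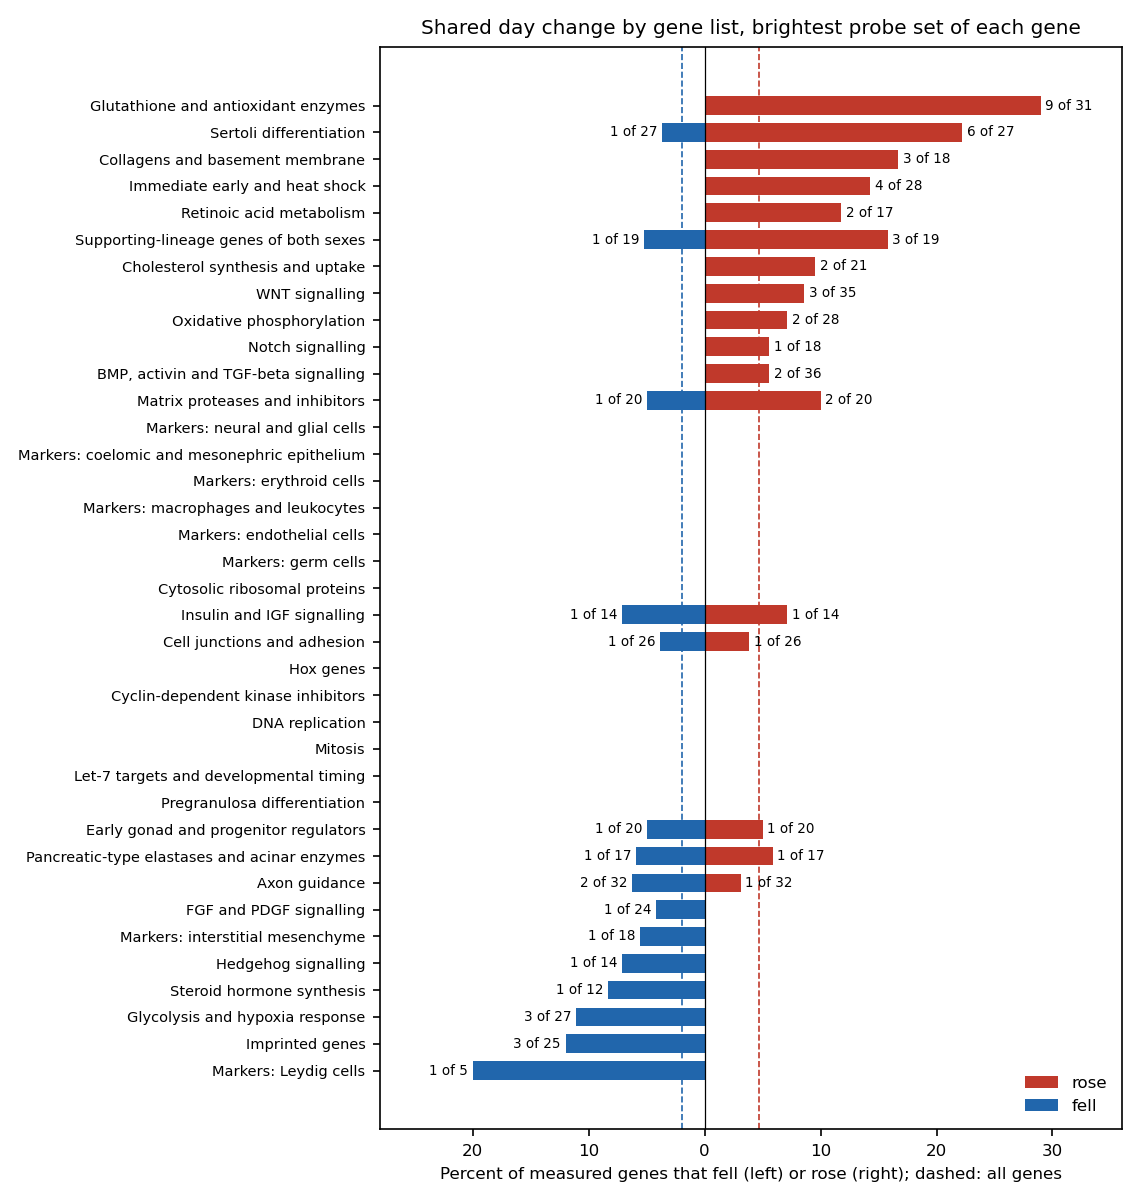
Percent of each list's measured genes that rose (red, to the right) or fell (blue, to the left) at the brightest probe set, with counts beside the bars; dashed lines mark all 17996 genes, 4.65% risen and 1.94% fallen. The glutathione list (9 of 31) and the Sertoli list (6 of 27) reach furthest to the right, counts that dropped to as few as 4 and 1 on leaving out 1 array, and 13 lists have no member in either direction.

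Gene families were also counted by the stem of their symbol, the letters before its first digit, over all stems with at least 10 genes. The families below were chosen after their values were seen, and their counts were not tested with arrays left out. Of 20 semaphorin genes, guidance ligands of the plexin receptors, 7 rose and 1 fell at any probe set, where 6.47% of all genes rose and 5.52% fell. Sema5b rose by 1.79 ± 0.12 (SE) log2 units (adjusted p = 0.00039), by 1.95 in XX and 1.64 in XY, and Sema4a by 1.85 ± 0.19, and for both the days did not overlap. Plxna1, a plexin, rose by 1.14 ± 0.21. Sema3c, a secreted semaphorin, fell instead. It ran from 8.98 to 10.42 (median 9.69) at E11.5 and from 7.37 to 8.44 (median 8.17) at E12.5, a fall of 3.2-fold (95% interval 2.16 to 4.73, adjusted p = 0.00575). At the brightest probe set the axon guidance list had 1 rise and 2 falls among 32 genes (3.12% and 6.25%, against 4.65% and 1.94% of all genes). Its second fall was Epha4, an ephrin receptor, by 0.78 ± 0.14 at 1 of 5 probe sets. As their mean, Epha4 did not pass (adjusted p = 0.0844).

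Mitochondrial ribosomal proteins were among the rises as well. Of 29 small-subunit genes 6 rose and 0 fell, all at the brightest probe set, where 4.65% of all genes rose, and of 47 large-subunit genes 10 rose and 2 fell at any probe set, where 6.47% rose and 5.52% fell. Mrps15 rose by 0.59 ± 0.10 (SE) and Mrps24 by 0.93 ± 0.18 log2 units. Of 11 poly(ADP-ribose) polymerases 4 rose, also against 4.65% of all genes, with changes of 0.45 for Parp11, 0.60 for Parp2, 1.02 for Parp9 and 1.70 for Parp12. Among the falls, 5 of 12 genes with the stem Pcdh fell at their brightest probe set, where 1.94% of all genes fell. These are protocadherins, calcium-dependent adhesion molecules, and protocadherins with other stems, such as Pcdhb, are not among the 12. The changes were -3.0 ± 0.43 at Pcdh7, -2.94 ± 0.40 at Pcdh20, -2.33 ± 0.39 at Pcdh11x, -2.11 ± 0.50 at Pcdh17 and -0.81 ± 0.17 at Pcdh9. Pcdh7 and Pcdh17 were in the background range at E12.5.

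Cyp11a1 encodes the cholesterol side-chain cleavage enzyme, the first step of steroid hormone synthesis, and marks fetal Leydig cells in the testis. Cyp11a1 read 12.05, 10.94 and 11.44 in XX and 10.91, 11.75 and 11.62 in XY at E11.5, and 9.5, 8.95 and 8.31 in XX and 7.64, 7.85 and 6.76 in XY at E12.5. Every E11.5 array of either genotype was above every E12.5 array, and the fall was 9.72-fold (95% interval 5.67 to 16.7, adjusted p = 0.00168). The change was -2.56 in XX and -4.01 in XY, and the difference did not pass (adjusted p = 0.275). The call held on leaving out each array and without the 3 E11.5 pools that stood apart (change -3.25). The other two probe sets of Cyp11a1 are dimmer, at mean signals of 7.34 and 4.42, and changed by -0.32 ± 0.26 and -0.04 ± 0.07 (SE), neither of which passed.

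At the brightest probe set Cyp11a1 was the 1 of 12 measured steroid synthesis genes that fell, and 0 rose. That is 8.33% fallen, against 1.94% of all genes. At any probe set, 2 genes of that list fell and 1 rose, where 5.52% of all genes fell and 6.47% rose. Star, which carries cholesterol into mitochondria, changed by -0.59 ± 0.32 (SE) at its brightest probe set (adjusted p = 0.274), though a dimmer one fell by 1.26 ± 0.28. Hsd3b1 changed by 1.75 ± 0.66 (adjusted p = 0.133) and Cyp17a1 by 0.96 ± 0.26 (adjusted p = 0.0511). Star, Hsd3b1, Cyp17a1, Nr5a1 and Cyp11a1 are also the 5 measured Leydig cell markers, whose mean level ran from 9.0 to 9.79 on E11.5 arrays and from 8.65 to 9.34 on E12.5 arrays. In such pools fewer cells of a type and less RNA per cell cannot be told apart. The steroidogenic factor 1 site CAAGGTCA, on either strand, was in 0 of the 11 steroid genes with a promoter window, in 2.6% of genes with a rise, 1.2% of genes with a fall and 1.6% of tested genes.

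Growth factors and their partners were among the falls. Pdgfc, a platelet-derived growth factor, read 12.40, 12.45 and 12.66 in XX and 12.36, 12.27 and 11.95 in XY at E11.5, and 11.31, 10.64 and 10.73 in XX and 10.35, 9.44 and 9.84 in XY at E12.5. No E12.5 value reached an E11.5 value, the fall was 3.89-fold (95% interval 2.88 to 5.25, adjusted p = 0.00148), and the second probe set fell by 2.10 ± 0.16 (SE) log2 units. At the brightest probe set Pdgfc was the 1 of 24 FGF and PDGF genes that fell (4.17%, against 1.94% of all genes). At any probe set, 4 genes of that list fell and 2 rose, where 5.52% of all genes fell and 6.47% rose. Kitl, the ligand that keeps germ cells alive, ran from 11.83 to 13.10 (median 12.57) at E11.5 and from 10.78 to 12.12 (median 11.28) at E12.5, a fall of 2.23-fold (95% interval 1.56 to 3.17, adjusted p = 0.0162); the days overlap, and 2 of its 4 probe sets passed. Gas1, a hedgehog co-receptor, fell by 1.15 ± 0.22, the 1 of 14 hedgehog genes called. F11r, a junctional adhesion molecule, fell by 0.75 ± 0.16, a call lost without XX E12.5 pool 3 or XY E12.5 pools 2 or 3.

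Genes of glycolysis and the hypoxia response had 3 falls and 0 rises among 27, 11.1% against 1.94% of all genes, and a median change of -0.23. Vegfa, the main growth factor of blood vessels, ran from 10.28 to 11.02 (median 10.85) at E11.5 and from 9.40 to 10.28 (median 9.75) at E12.5, a fall of 1.95-fold (95% interval 1.48 to 2.56, adjusted p = 0.0118). Ankrd37, a target of hypoxia-inducible factor, fell by 1.12 ± 0.19 (SE) log2 units with no overlap. Pgk1, a glycolytic kinase, fell at all 3 of its probe sets, with changes of -0.32, -0.64 and -0.41, but at the brightest the call was lost on leaving out any of 8 arrays.

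Imprinted genes, which are expressed from the copy of 1 parent, had 3 falls and 0 rises among 25 at the brightest probe set. That is 12% fallen, where 1.94% of all genes fell and 4.65% rose. At any probe set, 5 fell and 1 rose, where 5.52% of all genes fell and 6.47% rose. Slc38a4, an amino acid transporter, ran from 11.5 to 11.78 (median 11.68) at E11.5 and from 8.80 to 10.98 (median 10.29) at E12.5, a fall of 2.92-fold (95% interval 1.94 to 4.39, adjusted p = 0.00908); it fell at both probe sets. Peg3 fell by 0.40 ± 0.11 (SE) at signals between 13.18 and 14.03, and Asb4 by 2.24 ± 0.58; their calls were lost on leaving out any of 11 and 10 arrays. Among regulators of the early gonad, 1 of 20 rose and 1 fell, 5% each. Cbx2, a Polycomb protein, rose by 0.69 ± 0.13. Nr2f2 (COUP-TFII) marks steroidogenic and interstitial progenitors. At its brightest probe set Nr2f2 ran from 8.77 to 10.78 (median 9.77) at E11.5 and from 7.07 to 9.06 (median 7.71) at E12.5. That is a fall of 3.86-fold (95% interval 2.56 to 5.83, adjusted p = 0.00381). A dimmer probe set also fell, with a change of -3.32 ± 0.55 (SE). The rest of its probe sets did not pass, with changes from -1.025 to -0.04. The other measured markers of interstitial mesenchyme did not pass at their brightest probe set. At any probe set, 2 genes of that list rose and 2 fell, where 6.47% of all genes rose and 5.52% fell. The mean level of that list ran from 7.68 to 9.37 at E11.5 and from 7.59 to 8.39 at E12.5.

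Of the 15 falls with the largest change and no overlap between days, 14 lie at a probe set that is not the brightest of its gene: Atrx, Malat1, Akap9, Wnk1, Rbm5, Cenpe, Rock1, Zfp292, Resf1, Vps13a, Reep3, Crebbp, Washc4 and Kdm5a. They include chromatin regulators (Atrx, Crebbp, Kdm5a), kinases (Wnk1, Rock1), a splicing factor (Rbm5), a centromere motor (Cenpe) and the nuclear RNA Malat1. Atrx read 9.82, 10.01 and 12.66 in XX and 12.41, 9.54 and 12.19 in XY at E11.5, and 7.89, 4.98 and 5.08 in XX and 6.06, 5.14 and 5.64 in XY at E12.5 at the probe set with the largest fall. XX pool 3 and XY pools 1 and 3 at E11.5 were above the other E11.5 pools and E12.5 lay lower still, a fall of 39.5-fold (95% interval 13.3 to 117, adjusted p = 0.00347). The E12.5 values 4.98, 5.08 and 5.14 lie in the background range, which limits how that fold can be read. Malat1 had the same 3 pools above the other E11.5 pools, at 8.88, 9.81 and 11.46 in XX and 10.80, 9.32 and 11.27 in XY at E11.5, and 6.26, 4.37 and 5.33 in XX and 5.28, 5.36 and 4.29 in XY at E12.5, a change of -5.11 ± 0.51 (SE, adjusted p = 0.00138); its XY mean at E12.5 lay in the background range, so no fold is given. Without those 3 pools the calls of 8 of the 15 held, at smaller sizes: the change was -3.93 at Atrx, -4.15 at Malat1, -4.37 at Akap9, -3.85 at Cenpe, -3.26 at Rock1, -3.47 at Zfp292, -4.04 at Resf1 and -3.47 at Vps13a.

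Sister probe sets of these genes did not fall alike. The brightest probe set of Atrx, with a mean signal of 12.28, changed by -0.09 ± 0.20 (SE), while 3 of its 7 fell, with changes of -5.30, -4.93 and -4.63. Malat1 changed by -0.22 ± 0.18 at its brightest and fell at 3 of 7, with changes of -4.77, -3.77 and -5.11. Wnk1 changed by -0.13 ± 0.15 at a mean signal of 12.94 and fell by 4.96 ± 0.73 at 1 of 3. Rbm5 changed by 0.01 ± 0.14 and Crebbp by 0.01 ± 0.13 at their brightest probe sets. Of the 15 genes, Rock1, Resf1 and Calb1 fell at the brightest probe set as well. Calb1, which encodes the calcium-binding protein calbindin and was the 1 of the 15 whose largest fall was at its brightest probe set, ran from 10.57 to 12.07 (median 11.77) at E11.5 and from 4.65 to 10.57 (median 7.52) at E12.5, a fall of 17.9-fold (95% interval 5.72 to 56.2, adjusted p = 0.0104), with 3 of its 4 probe sets called. The lowest Calb1 value at E12.5, 4.65, lies in the background range, which limits how its fold can be read. Each of the changes given here belongs to 1 probe set.

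**Figure D4:**
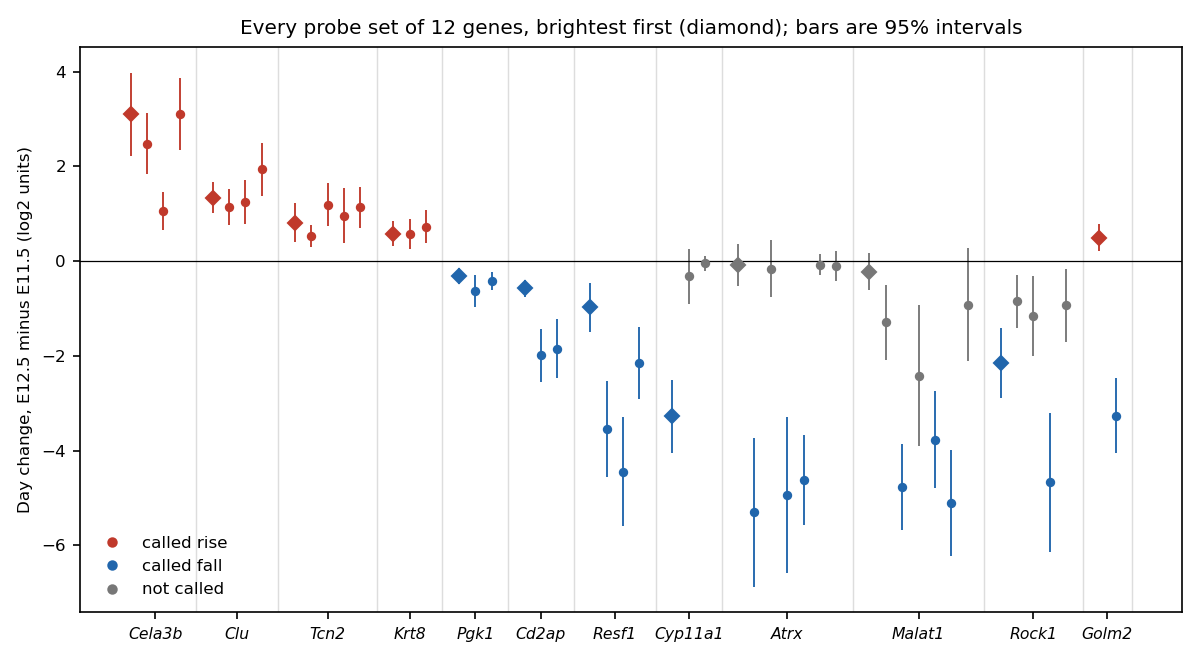
Day change (y axis, E12.5 minus E11.5, log2 units) with its 95% interval at every probe set of 12 genes, ordered within a gene from the brightest (diamond) to the dimmest; red marks rises, blue falls and grey probe sets not called. All probe sets of Cela3b, Clu, Tcn2, Krt8, Pgk1, Cd2ap and Resf1 were called in 1 direction, those of Atrx and Malat1 were split, and Golm2 was called in both directions.

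Of the 1165 genes with a rise, 770 have several probe sets; all of them rose for 56 genes (7.27%), 1 alone for 636 (82.6%), and the brightest for 442 (57.4%). Of the 994 genes with a fall, 895 have several; all fell for 32 (3.58%), 1 alone for 690 (77.1%), and the brightest for 251 (28%). Uncalled sisters of rises had a positive change in 970 of 1332 cases (72.8%), against 60.1% of all uncalled probe sets of genes with several. Uncalled sisters of falls had a negative change in 1290 of 2171 cases (59.4%), whereas the 60.1% of all such uncalled probe sets had a positive one. Brightest probe sets were 47.3% of the rises and 21.5% of the falls in genes with several, where they are 35.1% of all probe sets. These shares are descriptions, since probe sets of a gene share arrays and transcripts.

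Some genes with 3 or more probe sets were called at every one. Clu (clusterin, a secreted chaperone) rose at all 4, and at the brightest ran from 11.36 to 12.70 (median 12.16) at E11.5 and from 13.03 to 13.93 (median 13.35) at E12.5, a rise of 2.52-fold (95% interval 2.01 to 3.16, adjusted p = 0.00171). Tcn2, which carries vitamin B12, rose at all 5 probe sets, by 0.53 to 1.19 log2 units; at the brightest the call was lost on leaving out any of 5 arrays. Thra, a thyroid hormone receptor, rose at all 3, by 1.16, 1.18 and 0.49. Vat1, Ifi35, Dusp9 and Epdr1 rose at each of 3 probe sets, by 1.38, 2.13, 1.07 and 1.40 at the brightest, and the calls of Ifi35 and Epdr1 were lost on leaving out any of 6 and 2 arrays.

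Falls at every probe set were seen for genes of transcription, adhesion and metabolism. Cd2ap, an adaptor of the actin cytoskeleton, ran from 12.46 to 12.81 (median 12.64) at E11.5 and from 11.90 to 12.20 (median 12.05) at E12.5 at its brightest, a fall of 1.49-fold (95% interval 1.31 to 1.7, adjusted p = 0.00478), and changed by -1.99 and -1.85 at the others. Resf1 fell at all 4, with changes of -0.98, -3.55, -4.45 and -2.15. Ces1d, a carboxylesterase, fell at all 3, by 3.06 ± 0.53 (SE) at the brightest. Med13l, Gtf2a1, Ptprg and Jmjd1c fell, with changes of -1.96, -1.62, -0.99 and -0.57 at the brightest. At the brightest probe sets the calls of Resf1, Gtf2a1, Ptprg and Jmjd1c were lost on leaving out any of 7, 6, 9 and 9 arrays.

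In 33 genes, sister probe sets were called in opposite directions. Golm2 rose by 0.49 ± 0.13 (SE) at its brighter probe set and fell by 3.27 ± 0.36 at the dimmer one. Dkc1, a subunit of the enzyme that makes pseudouridine in RNA and of telomerase, rose by 1.75 ± 0.43 at 1 probe set and fell by 1.31 ± 0.29 at another, with its brightest uncalled. Nedd4l, a ubiquitin ligase, rose by 1.03 ± 0.25 at its brightest and fell by 2.18 ± 0.34 at another. These genes count both among the genes with a rise and among those with a fall.

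Genes with a fall span more of the genome than genes with a rise. The median span in the RefSeq annotation (GRCm38.p6) was 56.6 kb for genes with a fall, 21.5 kb for genes with a rise and 20.3 kb for all, and 28.7%, 12.5% and 12.4% were longer than 100 kb. With genes split into 10 equal groups by span, the share of probe sets that fell went from 0.904% in the shortest group to 6.77% in the longest, with 6.89% in group 9. The share that rose was 3.4% in the shortest and 3.09% in the longest group, and highest, 5.24%, in group 3. At the brightest probe sets alone falls went from 0.729% to 4.37%. Longer genes also have more probe sets, and what sets the relation was not tested.

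**Figure D5:**
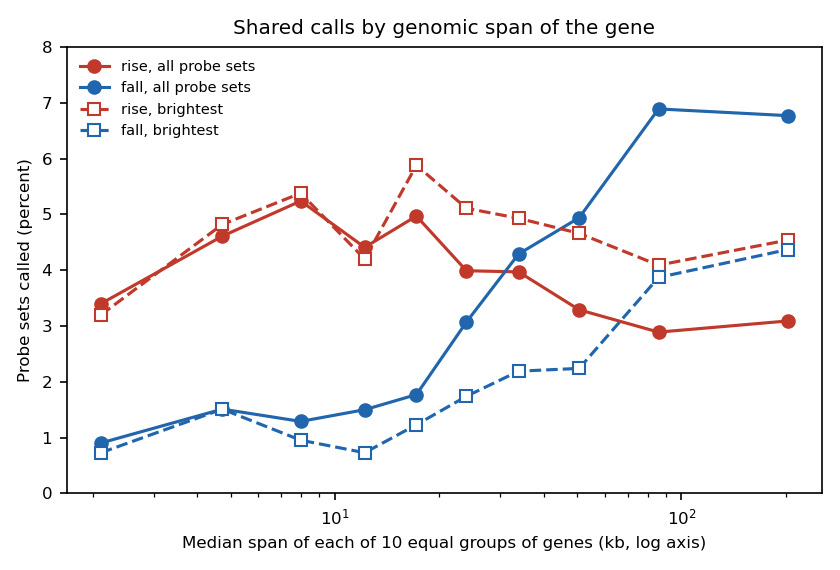
Percent of probe sets called as rise (red) or fall (blue) against the median genomic span of each of 10 equal groups of genes (x axis, kb, log scale); filled circles with solid lines are all probe sets, open squares with dashed lines the brightest probe set of each gene. Falls go from 0.904% to 6.77% from the shortest to the longest genes, while rises lie between 2.89% and 5.24% over all probe sets and between 3.2% and 5.88% at the brightest.

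Cell-cycle and developmental-timing lists had no shared member at the brightest probe set: 0 of 28 mitosis genes, 0 of 36 replication genes, 0 of 8 inhibitors of cyclin-dependent kinases, 0 of 31 Hox genes and 0 of 12 let-7 targets and timing genes. At an unadjusted p under 0.05 in limma, 0, 5, 3, 1 and 0 of them were higher at E12.5 and 0, 0, 1, 4 and 2 lower, in that order, against 18.6% and 6.13% of all genes. The sign of the day change was opposite in XX and XY for 27 of the 28 mitosis genes, and for 7704 of all 17996 genes. Genes with opposite signs cannot be members, so the sign rule alone kept those 27 out. Of 26 junction genes Cldn11 rose and F11r fell (3.85% each, where 4.65% of all genes rose and 1.94% fell). Of 14 insulin and IGF genes, the binding protein Igfbp2 rose and Igfbp5 fell; Igfbp2 changed by 3.22 in XX and 0.64 in XY, Igfbp5 by -0.48 in XX and -2.64 in XY, and their calls were lost on leaving out any of 7 and 4 arrays.

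Markers of other cells in the gonad were also followed. Of 16 germ cell, 21 endothelial, 18 macrophage and leukocyte, 10 erythroid, 14 coelomic and mesonephric epithelial and 12 neural and glial genes, 0 rose and 0 fell. At an unadjusted p under 0.05 in limma, 3, 0, 3, 1, 2 and 1 of them were higher at E12.5 and 0, 0, 0, 0, 2 and 1 lower, in that order, against the same 18.6% and 6.13% of all genes. The mean level of the endothelial list ran from 6.39 to 8.56 at E11.5 and from 6.34 to 7.14 at E12.5, and that of the macrophage list from 6.12 to 7.93 and from 6.88 to 7.63. XX E11.5 pool 2 was highest for the endothelial, macrophage, mesenchyme and neural lists. It was not among the pools that stood apart at the falls, and its part in single results was not tested beyond leaving it out.

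A change can be shared and still differ in size. The XY change was the larger one for 829 of the 1487 rises and 1065 of the 1761 falls. How often it is larger over all probe sets was not counted, so this is not read as a trait of the members. Over all probe sets, the day change passed for 3.11% in XX alone and 6.16% in XY alone. The 2 changes differed at 43 rises and 29 falls, where 774 (1.75%) of all probe sets passed that test. Defb19, a beta-defensin, changed by 0.93 in XX and 5.32 in XY, a difference of 4.39 ± 0.34 (SE) with an adjusted p of 0.000356. Kazald1 changed by 1.21 in XX and 4.74 in XY, Cemip, which degrades hyaluronan, by 1.02 in XX and 3.46 in XY, and Calb1 by -2.03 in XX and -6.29 in XY. Acsbg1 and Cela3b changed by 2.93 in XX and 3.04 in XY and by 2.84 in XX and 3.36 in XY; their differences of 0.11 ± 0.52 (SE) and 0.52 ± 0.81 (SE) did not pass.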

How the data were processed

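Values are the authors' deposited log2 signals of each probe set. The log base is not stated; the highest value, 14.45, on a 16-bit scanner allows a base of at most 2.15. RNA was isolated with PicoPure and amplified in 2 rounds with TargetAmp, per the labels' protocols; how signals were summarised, background-corrected and normalized is not given in the sources used here. Of 45037 probe sets, 798 were blank on every array and 1 on some, which left 44238. Symbols came from the platform annotation, updated through RefSeq (34126 matched); 34328 probe sets had 1 symbol, 850 several and 9060 none. Arrays have no read depth, and their number, 3 per group, limits the precision.

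Values were used as deposited. limma 3.58.1 (R 4.3.3, lmFit and eBayes, 9 residual degrees of freedom) fitted genotype and day over 12 arrays. Every adjusted p in the text is limma's, two-sided, Benjamini-Hochberg over the 44238, called under 0.05. The exceptions are the gene means of Lamc1 and Epha4, whose p were adjusted over the 17996 genes. A fit of 4 group means gave the change in each genotype and their difference. The sign rule removed 0 calls. At an unadjusted p under 0.05, 10985 probe sets passed. On simulated data, 200 changed probe sets among 44238, the fit recovered 20%, 68%, 88% and 96% of changes of 0.5, 1, 2 and 3 log2 units, with 11 false among 147 calls. The simulated noise was independent between probe sets and arrays, without pools that shift together. Far fewer probe sets changed than the 3248 called in the data, so these rates do not carry over to the real arrays. Promoter motifs and figures were made with Python 3.11.15 and matplotlib 3.10.9.

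Members, the 37 gene lists and tests were chosen with earlier results of these data known. Lists are counted at the brightest probe set of each gene. Genes were named by rule: the 15 largest rises and falls without overlap between days; up to 4 called members per list by p; up to 8 genes per direction with 3 or more probe sets all called; Cela3b, Cyp11a1 and key gonad regulators. Kitl, Amhr2, Star, Hsd3b1 and Cyp17a1 were added as marker checks; Mt2, Mt3, Mt4, the symbol families, further sister probe sets and list members, the metal and antioxidant response motifs, and the opposite-direction examples were chosen after their values were seen. Alternatives were quantile normalization, median centring, brighter probe sets only, a variance prior with trend, array weights, the pool number as a block, 4 group means, 1 probe set or 1 mean per gene, stricter thresholds and leaving out each array; a fit that leaves out 3 E11.5 pools was chosen later, with the data seen.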

Additional observations from a re-analysis of the deposited data

Results flagged for a closer look

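In 14 of the genes named, a test of the difference between the XX and XY day changes passed (limma, adjusted p under 0.05). The differences are given as XY minus XX in log2 units. Among the shared rises, the XY change was larger by 4.39 at Defb19, 3.53 at Kazald1, 1.55 at Cracdl, 2.44 at Cemip and 3.55 at Ptgds, while Igfbp2 gave -2.58. Among the shared falls, Calb1 gave -4.26 and Igfbp5 -2.15. Among genes that were no members, Sry gave -1.57, Foxl2 -2.71, Fst -5.07, Lhx9 -3.86, Emx2 -3.00 and Nr0b1 -2.29. Groups of 3 pools were not tested for single outlying arrays.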

How the results depend on the processing

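Quantile normalization, median centring, brighter probe sets only, a variance prior with trend, array weights and 4 group means left the counts of rises and falls within 1.5 times. With 1 probe set per gene, 740 rises and 323 falls passed, and with gene means 931 and 626. At an adjusted p under 0.01 it was 235 and 446, and 441 rises were of at least 1 log2 unit. With XX pool 3 and XY pools 1 and 3 of E11.5 left out, a setting chosen after seeing the data, 65 and 199 passed; this fit has fewer samples. Leaving out 1 array gave 619 to 1888 rises and 974 to 2139 falls; the rises fell to 619, 705, 744 and 760 without XX E12.5 pools 2 and 3 and XY E12.5 pools 2 and 3, and at E11.5 to 843, 630 and 908 without XX pool 3, XY pool 1 and XY pool 3. The falls dropped to 974, 1006, 1103 and 1056 without the same E12.5 pools, and at E11.5 to 1172 and 990 without XX pool 3 and XY pool 1. The 72 changes that also differed between genotypes became 144 with brighter probe sets only, 135 with array weights, 176 with 4 group means, 8 at an adjusted p under 0.01, 3 without the 3 pools and 11 to 101 on leaving out 1 array. With the pool number as a replicate block, 1349 rises, 1650 falls and 31 differing changes passed. Same-numbered pools correlated between -0.40 and 0.23, and 5 of 12 arrays correlated best with their own number, so the numbers were not taken to pair samples. Of the 96 named probe sets that were called, 65 kept their call under every planned setting in which they were fitted, 31 lost it under at least one, and 0 reversed; without the 3 pools 24 kept it.

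Signs turned at genes that were not called and at none that were. Without the 3 pools Sox9 went to 0.11, Fst to 0.48 and Nr0b1 to 0.13. On leaving out 1 array, Sox9 ran from -0.39 to 0.0026, Nr0b1 from -0.29 to 0.15, Runx1 from -0.59 to 0.0036 and Amhr2 from -0.11 to 0.18. As gene means Nr5a1 gave -0.28 and Amhr2 -0.081, and Amhr2 gave -0.0029 with quantile normalization and -0.0081 with array weights. Lower means in the range of absent Y transcripts, at 367 members (121 rises and 246 falls), limit how large a fold can be read. The cause of these shifts was not tested.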
